A study of Rattus norvegicus with 9 samples.

Results

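ACTA2, MYH11, ACTB and CCN2 are contractile, cytoskeletal and mechanically regulated genes, among them markers of myofibroblasts and smooth muscle (ACTA2) and of smooth muscle (MYH11). They are 4 of the 22512 rows of an RNA-seq table of cultured rat cardiac fibroblasts (CFs), the collagen-producing cells of the heart, and were chosen by name with their values already known, so their levels are described here with no test. Values are FPKM, fragments per kilobase of transcript scaled to the library total, which corrects for gene length and for the total number of fragments in a library.

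The CFs came from rats 1 to 3 days old and were separated from other heart cells by their faster adherence to plastic. The blank group (3 libraries) received neither agent. The AngII group (3 libraries) received angiotensin II (AngII), a peptide hormone that activates CFs, at 0.1 µM for 72 h. The vericiguat + AngII treatment group (3 libraries) received vericiguat, a stimulator of soluble guanylate cyclase, at 1.0 µM for 24 h before the same AngII exposure, per the labels, and the methods of a migration assay give the agents in the opposite order. No genotype, sex or culture of origin is given for any library, so the spread between replicates may be technical. The organism in the labels is rat, whereas the submitters' processing notes name OryCun2.0, a rabbit assembly. None of the 20346 LOC numbers in the table occurs in the rat RefSeq gene table, and 1607 of the 2153 symbols occur in it when case is ignored. What this means for the level of any single gene was not tested.

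Serum response factor (SRF) is a transcription factor that binds the CArG box, a short element with a core of A and T bases. Its cofactors of the MRTF family are held by monomeric actin and enter the nucleus when actin polymerises, so that assembly of the actin cytoskeleton raises transcription of actin and of contractile genes. The mechanical cofactors YAP and TAZ act beside this route through TEAD factors, for which CCN2 is a standard target. In the heart, activation of CFs to myofibroblasts is known for stress fibres that contain smooth muscle actin, the product of ACTA2.

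The sequences upstream of 2 of the 4 genes are shown because they hold, or lack, the letters that SRF and TEAD factors are known to prefer. They are rat RefSeq sequences of the GRCr8 assembly, the 250 bases before the annotated start, written 5′ to 3′ on the strand of the gene, at chr1:241172504-241172753 (minus strand) for Acta2 and chr1:22624615-22624864 (minus strand) for Ccn2. Capitals mark GGAATG, a core of TEAD sites, and any CArG box in which at most 1 of the central bases is not A or T.
Acta2: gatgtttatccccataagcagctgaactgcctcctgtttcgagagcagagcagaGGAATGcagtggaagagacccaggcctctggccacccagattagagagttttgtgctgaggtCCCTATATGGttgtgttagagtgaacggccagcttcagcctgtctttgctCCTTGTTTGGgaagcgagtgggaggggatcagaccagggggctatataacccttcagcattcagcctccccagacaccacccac
Ccn2: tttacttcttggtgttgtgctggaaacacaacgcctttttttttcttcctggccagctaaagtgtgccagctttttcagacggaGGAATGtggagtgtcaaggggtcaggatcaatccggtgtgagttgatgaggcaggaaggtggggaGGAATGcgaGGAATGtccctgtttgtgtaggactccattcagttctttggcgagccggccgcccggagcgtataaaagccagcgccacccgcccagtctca

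Acta2 held 2 such CArG-like elements, CCCTATATGG from -134 to -125 and CCTTGTTTGG from -84 to -75 before the start. It also held 1 copy of GGAATG, from -196 to -191. Ccn2 held no CArG-like element and 3 copies of GGAATG, starting at -166, -101 and -92. Both strands were searched, and the relaxed form was adopted after the strict CArG box (CC, 6 bases that are A or T, GG) had been found in none of the 10 genes that matched a promoter, out of the 4 genes and 8 other SRF genes described further on. The strict box occurs in 1.50% of 33469 rat promoter windows of this length, the relaxed form in 8.08% and GGAATG in 12.1%. Among the 10 genes, the relaxed form was found only in Acta2, and GGAATG in 6. These matches describe letters and are not evidence of binding.

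ACTA2 encodes smooth muscle actin, the usual marker of myofibroblasts. In replicates 1, 2 and 3, its FPKM was 7.79, 0.210 and 3.83 across blank replicates, 1.03, 0 and 0.114 across AngII replicates and 167, 139 and 212 across treated replicates. The treated libraries therefore lay far above all others, and the blank and AngII libraries overlapped because blank replicate 2 was low. The group means were 3.94 ± 3.79 in blank, 0.381 ± 0.565 in AngII and 173 ± 36.5 in vericiguat + AngII (SD, n = 3 for each). In the AngII libraries these values stood for about 11, 0 and 1 fragments, so their counting error was large.

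MYH11 encodes the heavy chain of smooth muscle myosin, the motor of smooth muscle contraction. Its FPKM was 13.3, 0.172 and 6.26 across blank replicates, 0.172, 0.455 and 0.186 across AngII replicates and 80.6, 51.5 and 90.1 across treated replicates. Blank replicate 2 lay at the level of the AngII libraries, while the other blank libraries lay above every AngII library and below every treated one. The means were 6.59 ± 6.59, 0.271 ± 0.160 and 74.1 ± 20.1 FPKM in the blank, AngII and vericiguat + AngII groups (SD, n = 3). About 9, 19 and 8 fragments stood behind the AngII values, against 805, 12 and 416 in the blank libraries.

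ACTB encodes β-actin, the cytoplasmic actin of the cytoskeleton, itself an SRF target and often used as a reference gene. Its FPKM was 43.0, 3.07 and 22.3 across blank replicates, 5.35, 7.06 and 3.55 across AngII replicates and 727, 660 and 779 across treated replicates. ACTB was the highest of the 4 genes in every library, and again blank replicate 2 was below all AngII libraries. The means were 22.8 ± 20.0, 5.32 ± 1.76 and 722 ± 59.6 FPKM (SD, n = 3). Actin genes are near-identical in sequence, and how fragments shared between them were assigned is not given in the sources used here, so the levels of ACTA2 and ACTB are uncertain to that extent.

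CCN2 encodes connective tissue growth factor, a secreted matricellular protein of fibrosis. Its FPKM was 7.79, 0.355 and 4.14 across blank replicates, 0.684, 0.594 and 0.512 across AngII replicates and 34.7, 19.8 and 33.8 across treated replicates. The pattern over the libraries was that of the other genes, with a smaller rise in the treated ones. The means were 4.10 ± 3.72, 0.597 ± 0.0860 and 29.4 ± 8.37 FPKM (SD, n = 3), and 13, 9 and 8 fragments stood behind the AngII values.

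In FPKM all 3 treated libraries were higher than all AngII and all blank libraries for each of the 4 genes, and that was true of 99.7% and 99.6% of the 10908 tested genes (those that reached FPKM 1 in 3 or more libraries). Genes at FPKM 1 numbered 11267 to 11552 in treated libraries and 247 to 1529 in the others, so most tested genes passed this filter through the treated group. Shares of genes higher in that group, here and below, can be raised by the filter. The mean of the treated group was above that of AngII by 453-fold for ACTA2, 273-fold for MYH11, 136-fold for ACTB and 49.3-fold for CCN2. Against the blank group the values were 43.8-fold, 11.2-fold, 31.7-fold and 7.19-fold. The blank mean in turn was above the AngII mean by 10.3-fold for ACTA2, 24.3-fold for MYH11, 4.28-fold for ACTB and 6.86-fold for CCN2, with overlapping libraries for each gene.

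**Figure D1:**
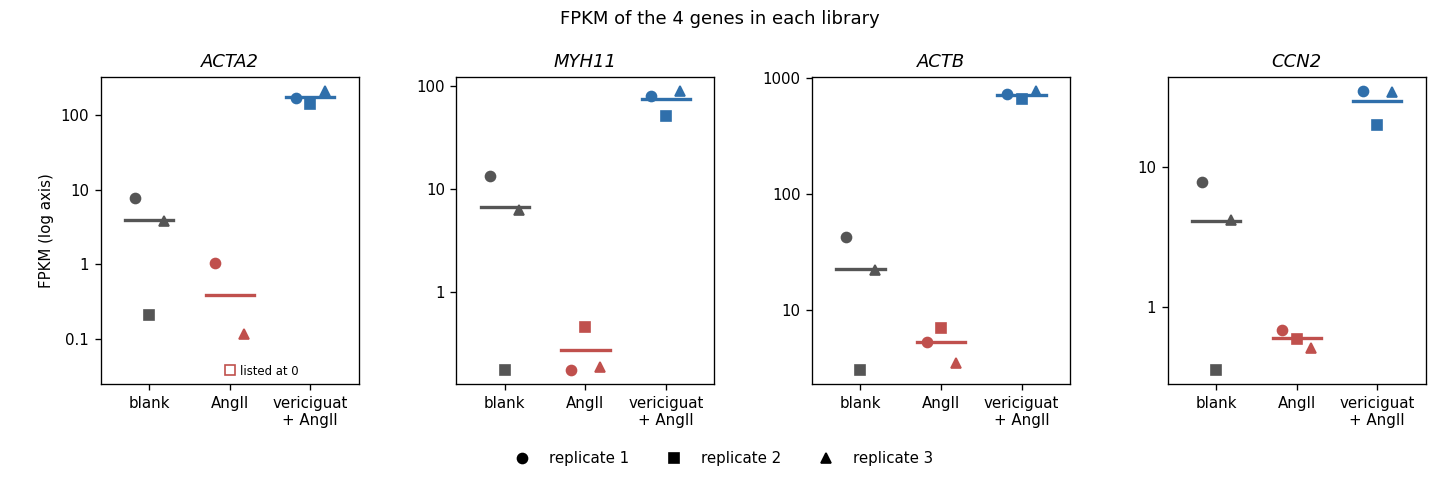
FPKM (log axis) of ACTA2, MYH11, ACTB and CCN2 in each library, by group, with the replicate number given by the symbol and the group mean of 3 libraries by the line. The treated libraries lie above all others for each gene, blank replicate 2 lies near or below the AngII libraries, and the open symbol marks the AngII library in which ACTA2 was listed at 0.

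Order among the 4 genes could be read within a group since FPKM is per length. In every vericiguat + AngII library the order was ACTB, ACTA2, MYH11 and CCN2, and the ranges did not meet (660 to 779, 139 to 212, 51.5 to 90.1 and 19.8 to 34.7 FPKM). In the blank group ACTB was followed by MYH11 at 6.59, CCN2 at 4.10 and ACTA2 at 3.94 FPKM, and these 3 means differed by less than their SD. In the AngII group ACTB lay above the other genes in every library, and the ranges of ACTA2, MYH11 and CCN2 came close to or overlapped each other.

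The libraries differed in composition, which FPKM does not take out. The 13 entries named KEF51, which the table does not pair with symbols, held 96.7% to 97.9% of the summed FPKM in the blank and AngII libraries and 45.3% to 52.3% in the treated ones. Genes other than KEF51 that reached FPKM 1 numbered 247 to 1529 in the blank, 1142 to 1504 in the AngII and 11267 to 11552 in the treated libraries, the 247 being blank replicate 2. A single gene, ADORA1-2, held 59.7% to 90.0% of the remaining FPKM in blank, 71.7% to 80.0% in AngII and 17.1% to 27.8% in treated libraries. FPKM of 0 for genes that most cells use occurs in the blank and AngII libraries, so a 0 is given as listed.

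The 4 genes were therefore set against the other 22499 genes outside KEF51. The relative level is the FPKM of a gene per 1000000 of the summed FPKM of those genes. For ACTA2 it was 251, 5.79 and 102 across blank replicates, 22.5, 0 and 2.11 across AngII replicates and 393, 325 and 488 across treated replicates. For MYH11 it was 430, 4.75 and 166, then 3.76, 7.90 and 3.45, then 189, 120 and 208 in the same order. On this scale the treated libraries of MYH11 fell between the highest and the lowest blank library, whereas those of ACTA2 stayed above all of them.

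For ACTB the relative level was 1387, 84.8 and 590 across blank replicates, 117, 123 and 65.8 across AngII replicates and 1706, 1540 and 1796 across treated replicates. For CCN2 it was 251, 9.80 and 110 in blank, 15.0, 10.3 and 9.49 in AngII and 81.5, 46.2 and 77.9 in the treated libraries. CCN2 thus sat in the treated group below blank replicates 1 and 3, above blank replicate 2 and above every AngII library.

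By rank among the 22499 genes, with the highest FPKM at place 1, ACTB stood at places 36 to 91 in the blank, 237.5 to 411 in the AngII and 51 to 85 in the treated libraries, ties sharing a mean place. Its AngII libraries ranked below those of the other groups with no overlap. MYH11 stood at places 115 to 1371, 2910 to 4588.5 and 453 to 879 in the same order, again with the AngII libraries below all others. ACTA2 stood at 188 to 1125, 1107 to 16354 and 207 to 337. CCN2 was the gene whose treated libraries all ranked below all blank libraries, with 187 to 651 in blank, 1624.5 to 2343.5 in AngII and 1248 to 2205 in treated libraries. Ranks do not depend on the scale of a library, but they do depend on how many genes it detects. Genes above 0 numbered 5498 to 9310 in blank, 9902 to 10425 in AngII and 16445 to 16751 in treated libraries. The share of all genes whose ranks separate in these ways was not computed, so the separations cannot be called particular to ACTB, MYH11 or CCN2.

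Since ADORA1-2 weighs on the relative level, the libraries were also scaled by the median ratio over the 3813 genes that were above 0 in every library. After this median-ratio scaling ACTA2 had 189, 29.8 and 164 across blank replicates, 38.9, 0 and 3.84 across AngII replicates and 118, 110 and 170 across treated replicates. MYH11 had 323, 24.4 and 267, then 6.50, 11.4 and 6.26, then 57.0, 40.5 and 72.4. For both genes the treated libraries lay above all AngII libraries and inside the range of the blank ones.

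ACTB had 1042, 435 and 951 across blank replicates, 202, 177 and 120 across AngII replicates and 514, 520 and 626 across treated replicates on the median-ratio scale. CCN2 had 189, 50.3 and 177, then 25.9, 14.9 and 17.2, then 24.6, 15.6 and 27.2. The treated libraries of CCN2 overlapped the AngII libraries and lay below all blank ones. For MYH11, ACTB and CCN2, but not ACTA2, all AngII libraries lay below all blank libraries on this scale, as did 9% of all tested genes.

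**Figure D2:**
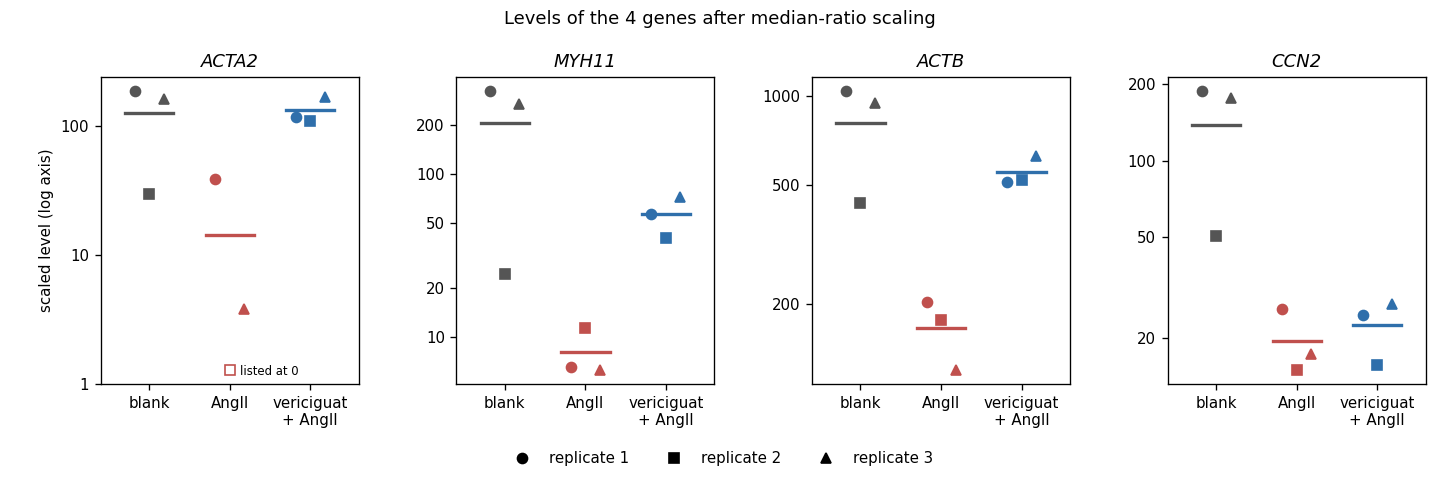
Level (log axis) of the 4 genes in each library after median-ratio scaling over 3813 genes, by group, with the replicate number given by the symbol and the group mean by the line. AngII libraries are lowest for MYH11 and ACTB, the treated libraries of CCN2 overlap the AngII libraries, and the open symbol marks ACTA2 listed at 0.

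In AngII against blank the direction did not depend on the scale. The AngII mean was the lower one for all 4 genes in FPKM, in relative level and after median-ratio scaling. In relative level the blank mean was 14.6-fold higher for ACTA2, 39.8-fold for MYH11, 6.75-fold for ACTB and 10.7-fold for CCN2, and after median-ratio scaling 8.93-fold, 25.4-fold, 4.87-fold and 7.17-fold. The libraries overlapped in relative level for all 4 genes through blank replicate 2, and without it every AngII library lay below both remaining blank libraries for each gene, with the blank mean 21.5-fold, 59.2-fold, 9.71-fold and 15.6-fold higher. The share of all tested genes that separate without blank replicate 2 was not computed. Leaving it out raised the genes called in this comparison from 698 to 2040. As a mean of log2(relative level + 1), AngII differed from blank by -3.74 for ACTA2, -3.70 for MYH11, -2.06 for ACTB and -2.44 for CCN2. These differences were -5.26, -5.55, -3.19 and -3.76 without blank replicate 2, and -2.66, -2.43, -1.18 and -1.48 without blank replicate 1.

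Vericiguat + AngII against AngII gave higher means for the 4 genes on all of these scales, with sizes that fell as composition was taken out. In relative level the treated mean was 49.0-fold higher for ACTA2, 34.2-fold for MYH11, 16.5-fold for ACTB and 5.91-fold for CCN2, with no overlap, as for 90.4% of all tested genes. The AngII mean of ACTA2 rested on replicate 1, and its log2 difference of 6.57 became 7.81 without AngII replicate 1 and 5.54 without AngII replicate 2. After median-ratio scaling it was 9.31-fold, 7.04-fold and 3.33-fold higher for ACTA2, MYH11 and ACTB, with no overlap, as for 29.6% of all tested genes. CCN2 was then 1.16-fold higher with overlapping libraries, so a difference between these groups was not seen for CCN2 on that scale.

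Vericiguat + AngII against blank depended on the scale. In FPKM all 4 genes were higher in the treated group. In relative level ACTA2 was 3.36-fold and ACTB 2.44-fold higher in the treated group without overlap, as were 84.2% of all tested genes, while the means of MYH11 and CCN2 were higher in the blank group by 1.16-fold and 1.80-fold with overlap. After median-ratio scaling the ratio of the treated to the blank mean was 1.04 for ACTA2, 0.277 for MYH11 and 0.684 for ACTB with overlap, and 0.162 for CCN2 with every treated library below every blank one, as for 12.4% of all tested genes. The mean of log2(relative level + 1), which gives less weight to a high library, was 1.18 above blank in the treated group for MYH11 and 0.01 above for CCN2, and these differences were -0.67 and -1.31 without blank replicate 2 and 2.45 and 0.96 without blank replicate 1. Without blank replicate 2 the treated libraries of CCN2 also lay below the blank ones in relative level, and the share of all tested genes that did so was not computed. In a bulk library fewer cells that express a gene and less RNA of it per cell cannot be told apart.

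Ratios between the genes within a library do not depend on any scaling and show unequal change, not which gene changed. The FPKM of CCN2 was 18.1%, 11.6% and 18.6% of that of ACTB across blank replicates, 12.8%, 8.41% and 14.4% across AngII replicates and 4.78%, 3.00% and 4.34% across treated replicates. Every treated library lay below every other library, with means of 16.1 ± 3.94%, 11.9 ± 3.10% and 4.04 ± 0.926% (SD, n = 3). For ACTA2 the percentages of ACTB were 18.1, 6.84 and 17.2 in blank, 19.2, 0 and 3.21 in AngII and 23.0, 21.1 and 27.2 in treated libraries, and again the treated libraries stood apart, here as the highest. In relative level the treated group differed by 1.82 from AngII and -0.49 from blank for ACTB, on the log2 scale relative to the median gene. A ratio to ACTB thus also moves with ACTB. The share of all genes whose ratios separate, here and in the next paragraph, was not computed.

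MYH11 took 31.0%, 5.60% and 28.1% of the FPKM of ACTB across blank replicates, 3.21%, 6.44% and 5.24% across AngII replicates and 11.1%, 7.80% and 11.6% across treated replicates. The treated libraries lay above the AngII libraries and below blank replicates 1 and 3. Set against ACTA2, MYH11 had 171%, 81.9% and 163% of its FPKM in the blank libraries and 48.2%, 37.0% and 42.5% in the treated libraries, so that MYH11 exceeded ACTA2 in 2 of 3 blank libraries and in no treated one. CCN2 had 100.1%, 169% and 108% of the FPKM of ACTA2 in blank and 20.7%, 14.2% and 16.0% in treated libraries, which do not overlap. In the AngII group the ratios to ACTA2 rest on 11 fragments and 1 fragment and cannot be formed in AngII replicate 2.

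**Figure D3:**
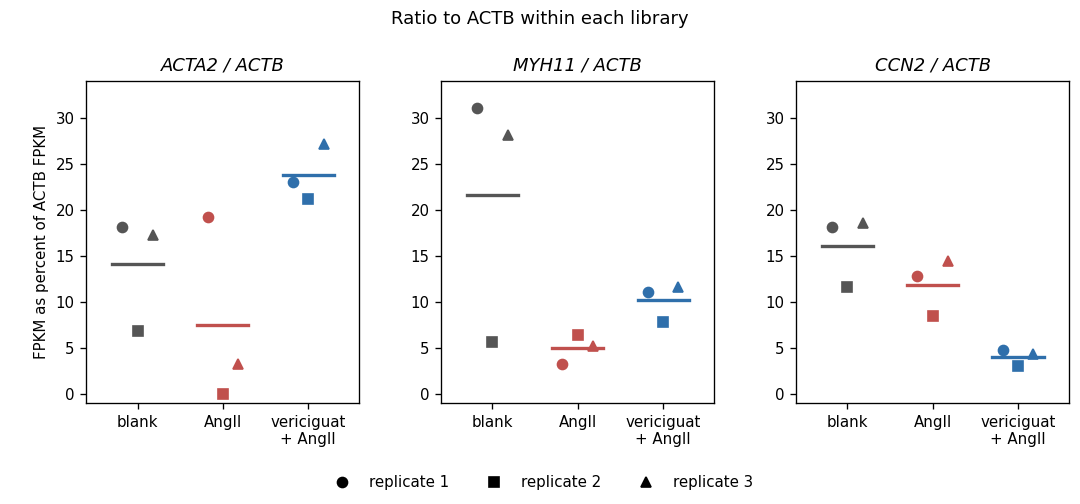
FPKM of ACTA2, MYH11 and CCN2 as a percentage of the FPKM of ACTB in the same library, by group, with the replicate number given by the symbol and the group mean by the line. The ratio of CCN2 is lowest and that of ACTA2 highest in the treated libraries, and the ratio of MYH11 is highest in blank replicates 1 and 3.

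The 4 genes varied together across the blank libraries, as did nearly all genes compared. From blank replicate 1 to blank replicate 2 the relative level fell for MYH11 by a ratio of 90.6, for ACTA2 of 43.4, for CCN2 of 25.7 and for ACTB of 16.4. The median ratio of the 2233 genes that reached FPKM 0.5 in the former and above 0 in the latter was 8.81. Of these genes 99.4% were higher in blank replicate 1, so a joint fall was not particular to the 4. MYH11 exceeded 99.8% of these genes, ACTA2 97.8%, CCN2 90.8% and ACTB 77.9%, so that all 4 stood above the typical gene, and only about 12, 3, 9 and 59 fragments supported the lower value. Between blank replicates 1 and 3 the ratios were 2.59, 2.47, 2.29 and 2.35 for MYH11, ACTA2, CCN2 and ACTB, close to the median of 2.33 over 2725 genes.

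Other genes of contractile and matrix lists differed in how far they followed this drop. The ratio of blank replicate 1 to blank replicate 2 was 75.0 for FN1 (fibronectin), 67.6 for TIMP1 (an inhibitor of matrix metalloproteinases), 56.8 for TPM2 (a tropomyosin) and 41.7 for CCN1 (a matricellular relative of CCN2), each above at least 97.3% of the genes. It was 10.5 for TPM1 (another tropomyosin), 8.96 for DES (desmin, the intermediate filament of muscle) and 11.0 for ANKRD1 (a nuclear cofactor of muscle), near the median. The named examples were chosen after their values were seen.

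**Figure D4:**
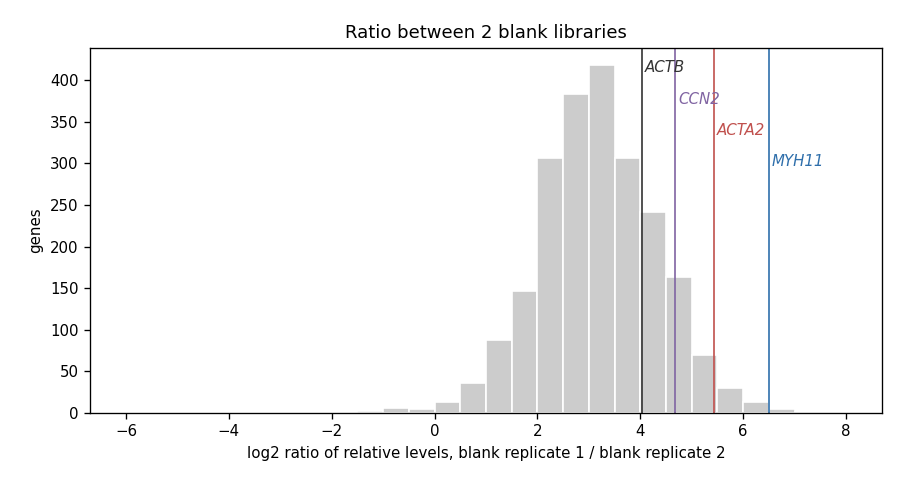
Histogram of the log2 ratio of relative levels between blank replicate 1 and blank replicate 2 for the 2233 genes that reached FPKM 0.5 in the former and above 0 in the latter. Vertical lines mark ACTB, CCN2, ACTA2 and MYH11, from left to right, which all lie to the right of the median ratio of 8.81.

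The spread within a group, as the log2 range of relative level + 1 over the 3 libraries, was 6.23 for MYH11, 5.21 for ACTA2, 4.55 for CCN2 and 4.02 for ACTB in the blank group, against a median of 1.92 over 10895 tested genes outside KEF51. Most of those genes were below FPKM 1 in blank and AngII libraries, and adding 1 narrows the range of low genes. Genes of like level were not compared, so the excess of the 4 genes over this median may be overstated. In the AngII group it was 4.56 for ACTA2, which included the library at 0, and 1.00, 0.89 and 0.60 for MYH11, ACTB and CCN2, against a median of 1.33. In the treated group it was 0.59, 0.78, 0.22 and 0.81 for ACTA2, MYH11, ACTB and CCN2, against a median of 0.35. ACTB was thus less variable, and the other 3 genes more variable, than the typical gene among treated libraries.

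Across the 9 libraries the Pearson correlation of log2(relative level + 1) between pairs of the 4 genes ran from 0.853 for ACTA2 and CCN2 to 0.963 for MYH11 and CCN2. Among 1084 genes with symbols that were measured, the most alike to ACTA2 were PITPNA, NQO2 and MARCHF7 (r of 0.976, 0.971 and 0.966), and to ACTB they were TRIR, SEPTIN8 and IL18BP (r of 0.991, 0.987 and 0.984). MYH11 was most like PRKCE, C16H1orf198 and PRKCA (r of 0.991, 0.985 and 0.981), and CCN2 most like GCSH, PRKCE and PRKCA (r of 0.988, 0.980 and 0.966). PRKCE and PRKCA encode isoforms of protein kinase C and were among the nearest genes of both MYH11 and CCN2. PRKCE and GCSH were listed at 0 in blank replicate 2 and in every AngII library. PRKCA had 0.330, 0.011 and 0.144 FPKM in blank and 0.030, 0.038 and 0.019 in AngII libraries. PRKCE, PRKCA, GCSH, C16H1orf198, NQO2, MARCHF7 and SEPTIN8 reached FPKM 1 in treated libraries only, so their r rests partly on very low values elsewhere. No member of the 4 was among the 3 nearest genes of another, the closest place being that of MYH11, 5 in the order for CCN2. The 9 points share 3 groups and the composition of their libraries, and the correlations are given as a description.

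Of 40 contractile and cytoskeletal SRF and MRTF genes, 11 were listed by symbol, of which 8 are not among the 4 genes, and all 8 were measured highly enough to be tested. They are MYLK (myosin light chain kinase), TPM1, TPM2, FLNA (filamin A, an actin crosslinker), DES, CALD1 (caldesmon), KCNMB1 (a subunit of a smooth muscle potassium channel) and JPH2 (junctophilin of muscle membrane junctions). They were tested with limma on log2(relative level + 1) across 10908 genes and called at a Benjamini-Hochberg adjusted p below 0.05 and an absolute log2 difference of at least 1. FLNA, JPH2, KCNMB1 and MYLK reached FPKM 1 in treated libraries only and so passed the filter through that group. Their calls as higher there were partly set in advance by the filter. The same holds for MRTFA, MRTFB, ROCK1, TGFB2, EZR, ACE, TTN, RYR2, KCNJ8, KDR and VWF, described further on. CCN1, CAPZA2, F3, COL1A2 and FN1 reached FPKM 1 in fewer than 3 libraries outside the treated group. They too needed treated libraries to pass the filter, so the limit also applies to their calls as higher there.

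In AngII against blank none of the 8 genes was called, and none had an unadjusted p below 0.05, against 6.4% of all tested genes called. Their median log2 difference was 0.10, beside 0.24 over all tested genes, and 4 of the 8 were below 0 (TPM2, MYLK, FLNA and CALD1). The difference between the 8 genes and the other 4 was not tested. TPM2 had the lowest value, with FPKM of 10.6, 0.219 and 4.83 in blank, 1.10, 0.367 and 0.889 in AngII and 82.3, 80.6 and 86.3 in treated libraries. Its log2 difference in relative level was -2.20 ± 1.18 (SE, n = 3 per group), with a limma adjusted p of 0.287, and without blank replicate 2 TPM2 was called lower in AngII, the only one of the 8. DES had 4.12, 0.538 and 2.33 FPKM in blank and 3.50, 5.29 and 6.55 in AngII libraries, and its log2 difference was 0.91 ± 0.80 (SE) with a limma adjusted p of 0.524.

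In vericiguat + AngII against AngII 7 of the 8 genes were called higher and none lower, beside 76.8% of all tested genes called higher and a share of 77% called in either direction. Their median log2 difference was 2.55, beside 2.26 over all tested genes. FLNA had 0.081, 0 and 0 FPKM in AngII and 32.1, 21.7 and 30.0 in treated libraries, with a log2 difference of 5.54 ± 0.73 (SE) and a limma adjusted p of 9.57e-05. JPH2 followed with 0, 0 and 0.254 FPKM in AngII and 30.1, 14.9 and 19.6 in treated libraries, a log2 difference of 4.78 ± 0.69 (SE) and a limma adjusted p of 0.000169. CALD1 was not called, at 1.51 ± 0.84 (SE) and a limma adjusted p of 0.113. After median-ratio scaling 2 of the 8 genes were called, FLNA and JPH2, beside 10.9% of all tested genes, and without AngII replicate 2, or without treated replicate 1 or 2, 4 were called in relative level (DES, FLNA, JPH2 and KCNMB1).

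In vericiguat + AngII against blank 5 of the 8 genes were called higher (DES, FLNA, JPH2, KCNMB1 and TPM1) and none lower, beside 78.8% of all tested genes higher and 79.2% in either direction. Their median log2 difference was 2.95, beside 2.52 over all tested genes. JPH2 was listed at 0 in every blank library. TPM1 had 6.85, 0.766 and 3.81 FPKM in blank and 497, 346 and 260 in treated libraries, with a log2 difference of 3.38 ± 0.81 (SE) and a limma adjusted p of 0.00300. TPM2, MYLK and CALD1 were not called, at 1.52 ± 1.18, 1.40 ± 0.89 and 1.46 ± 0.84 (SE). After median-ratio scaling DES, FLNA and JPH2 were called, 3 of 8 beside 30.9% of all tested genes, and without blank replicate 1 all 8 were called in relative level.

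**Figure D5:**
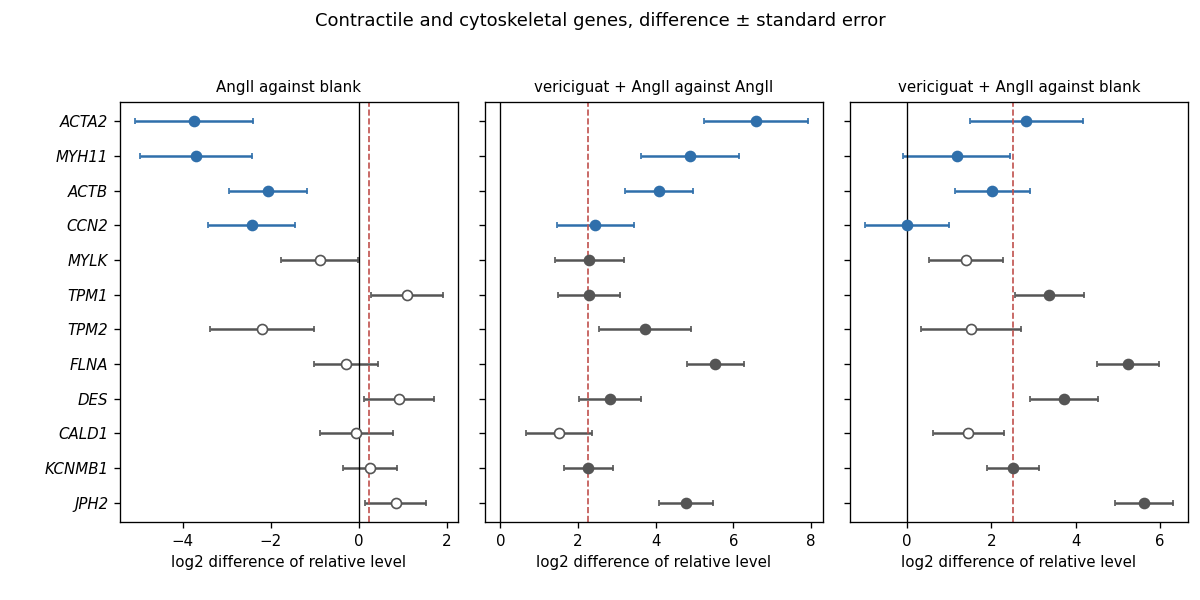
Log2 difference in relative level with its limma standard error for the 4 genes (blue, described with no test) and 8 other SRF genes (grey, filled where called), in the 3 comparisons. The dashed line marks the median of all tested genes, at 0.24, 2.26 and 2.52, and the solid line marks 0.

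The median of all tested genes moved with the scale, at 0.24, 2.26 and 2.52 for the 3 comparisons in relative level (AngII against blank, treated against AngII, treated against blank), 0.06, 2.76 and 2.83 in FPKM and 0.36, 0.46 and 0.91 after median-ratio scaling. Relative to it, in relative level, the treated group differed from AngII by 4.31 for ACTA2, 2.62 for MYH11, 1.82 for ACTB and 0.19 for CCN2 on the log2 scale. Against blank the same values were 0.31 for ACTA2, -1.34 for MYH11, -0.49 for ACTB and -2.51 for CCN2. AngII differed from blank, relative to the median gene, by -3.98, -3.94, -2.29 and -2.68 for ACTA2, MYH11, ACTB and CCN2.

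Cofactors and regulators of SRF were represented by 3 of 20 genes, MRTFA and MRTFB (the actin-regulated cofactors) and ROCK1 (a kinase that promotes actin stress fibres). None was called in AngII against blank in relative level. MRTFB had 0.072, 0.010 and 0.033 FPKM in blank, 0.028, 0.069 and 0.067 in AngII and 5.46, 4.90 and 5.36 in treated libraries, and was higher in treated than in AngII libraries by 2.72 ± 0.47 (SE) on the log2 scale with a limma adjusted p of 0.000540. ROCK1 was called higher in treated libraries against both other groups, so that 2 of the 3 genes were called higher against AngII, beside 76.8% of all tested genes, and MRTFA in neither comparison (1.20 ± 0.59 and 1.07 ± 0.59, SE). After median-ratio scaling none of the 3 was called between treated and AngII, beside 10.9% of all tested genes, and ROCK1 was called higher in AngII than in blank, beside 15.8% of all tested genes called, at 1.97 ± 0.45 (SE) with a limma adjusted p of 0.0178.

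Immediate early SRF targets were represented by CCN1 alone of 15 genes. CCN1 had 1.68, 0.047 and 0.933 FPKM in blank, 0.624, 0.157 and 0.760 in AngII and 42.1, 18.9 and 38.8 in treated libraries. It was higher in treated than in AngII libraries by 2.98 ± 1.08 (SE) in relative level with a limma adjusted p of 0.0261, beside 76.8% of all tested genes called higher. CCN1 was not called in the other comparisons, and was called in none after median-ratio scaling.

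Targets of YAP and TEAD other than CCN2 were CCN1, ANKRD1, F3 (tissue factor) and TGFB2 (a transforming growth factor), of 24 genes listed. ANKRD1 had 3.26, 0.346 and 1.20 FPKM in blank, 15.9, 10.1 and 18.5 in AngII and 1032, 1088 and 1031 in treated libraries. Every AngII library was above every blank library, the opposite order of CCN2 means. The share of all tested genes that separate in this direction is not given here. The log2 difference in relative level was 3.06 ± 0.79 (SE) with a limma adjusted p of 0.0432, beside 6.4% of all tested genes called. ANKRD1 was also called after median-ratio scaling, at 2.95 ± 0.39 (SE) with a limma adjusted p of 0.00192, beside 15.8% of all tested genes. No gene was called in this comparison when the fit held the compared groups only. In treated against AngII 3 of the 4 genes were called higher in relative level (CCN1, ANKRD1 and TGFB2), beside 76.8% of all tested genes, and none after median-ratio scaling, beside 10.9% called in either direction.

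Matrix genes of myofibroblasts were represented by 6 of 17 genes, of which COL1A2 (a chain of type I collagen), FN1, TGFB1 (transforming growth factor β1), TIMP1 and BGN (biglycan) could be tested, and TNC (tenascin C) was too low. TIMP1 resembled the 4 genes between blank and AngII, with 21.4, 0.370 and 10.1 FPKM in blank, 0.823, 0 and 0.400 in AngII and 10.7, 10.7 and 10.0 in treated libraries. Its log2 difference of AngII from blank was -4.56 ± 1.41 (SE) with a limma adjusted p of 0.0835 in relative level, and -4.88 ± 1.25 (SE) with a limma adjusted p of 0.0285 after median-ratio scaling, where it was the 1 gene of 5 called (beside 15.8% of all tested genes). COL1A2 had 0.698, 0.060 and 0.444 FPKM in blank, 5.13, 0.303 and 1.76 in AngII and 15.1, 16.2 and 13.1 in treated libraries, and was called in no comparison in relative level. In treated against AngII only TGFB1 of the 5 was called in relative level, at 2.63 ± 1.02 (SE) with a limma adjusted p of 0.0348, beside 77% of all tested genes called. After median-ratio scaling none of the 5 was called in that comparison, beside 10.9% of all tested genes. TGFB1 was then at 0.79 ± 0.98 (SE) with a limma adjusted p of 0.664. In treated against blank none was called in relative level, beside 79.2% of all tested genes. TIMP1 was called lower after median-ratio scaling, at -4.67 ± 1.25 (SE) with a limma adjusted p of 0.0207, beside 30.9% of all tested genes called in either direction.

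Actin filament assembly genes were represented by 2 of 25, CAPZA2 (a capping protein) and EZR (ezrin, which links actin to the membrane). Both were called higher in treated than in blank libraries in relative level, at 2.89 ± 0.70 and 3.44 ± 0.62 (SE), beside 78.8% of all tested genes, and neither was called in treated against AngII, beside 77% of all tested genes. After median-ratio scaling neither was called in treated against blank, at 0.53 ± 0.45 and 1.91 ± 0.66 (SE), beside 30.9% of all tested genes called. On that scale EZR was called higher in AngII than in blank, at 2.66 ± 0.66 (SE) with a limma adjusted p of 0.0251, beside 15.8% called. CAPZA2 was not called there. EZR was listed at 0 in 2 blank libraries and had 0.039 FPKM in the other, beside 0.100, 0.250 and 0.546 in the AngII libraries.

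Of the AngII pathway itself, AGTR2 (an AngII receptor) was listed at 0 in every library, and AGTR1, the receptor that mediates most effects of AngII, had a relative level of 1.55, 0 and 2.31 in blank, 2.40, 1.20 and 0 in AngII and 3.03, 1.46 and 3.04 in treated libraries. AGTR1 was too low to be tested. ACE, the enzyme that makes AngII, was called higher in treated than in AngII libraries in relative level, at 3.37 ± 0.64 (SE) with a limma adjusted p of 0.00104. So were 76.8% of all tested genes, and ACE was not called after median-ratio scaling.

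Markers of cell types that a heart culture can hold also differed between groups in relative level, and their part in the levels of the 4 genes was not tested. The summed relative level of 7 cardiomyocyte markers of 15 was 192 to 257 in blank, 996 to 1939 in AngII and 9187 to 14758 in treated libraries, with NPPA at 0 in all blank libraries. That of 4 fibroblast markers of 14 (COL1A2, DCN, LUM and FN1) was 47.0 to 797 in blank, 123 to 562 in AngII and 848 to 1236 in treated libraries, and no fibroblast marker listed was at 0 throughout a group. For smooth muscle and pericytes 4 of 14 were listed, and the sum of the 2 that are not among the genes described above, DES and KCNJ8, ran from 21.9 to 147 in blank, from 81.5 to 127 in AngII and from 560 to 1183 in treated libraries. For endothelium 2 of 9 were listed (KDR and VWF), with sums of 1.49 to 12.8, 1.81 to 7.31 and 191 to 201 and KDR at 0 in all blank libraries, and for red blood cells 2 of 6, with sums of 4247 to 12834, 4460 to 5752 and 19621 to 34873. None of 8 macrophage markers was listed by symbol. The cardiomyocyte sums did not overlap between any 2 groups, while the fibroblast sums overlapped between blank and AngII. After median-ratio scaling the median log2 difference of the fibroblast markers was -0.52 in treated against AngII and -0.46 in treated against blank, with none of 4 called. On that scale neither red blood cell marker was called in any comparison, with medians of -0.02, 0.00078 and -0.02, while 3 of 6 tested cardiomyocyte markers were called higher in treated against AngII, beside 10.9% of all tested genes called. In AngII against blank 4 of the 6 were called higher, beside 15.8% of all tested genes called, and in treated against blank 5, beside 30.9%. Both endothelial markers were called higher in treated against AngII and in treated against blank, and 1 in AngII against blank.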

How the data were processed

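RNA-seq of 9 libraries was analysed, with groups and replicates taken from the labels. Per the submitters' processing notes, FastQC 0.11.9, Trimmomatic 0.39, HISAT2 2.2.1, featureCounts 2.0.1 and the build OryCun2.0 were used; their settings and roles are not given in the sources used here. The authors deposited FPKM values per gene, with no counts. Depth is therefore unknown: fragments behind the 4 genes' values are the smallest whole numbers that fit (within a tolerance of 0.1), could be off by a whole factor, and cover counting only. Relative levels were computed per 1000000 of the summed FPKM outside KEF51. Tests used limma 3.58.1 in R 4.3.3 (lmFit, eBayes with trend) on log2(relative level + 1), all 9 libraries in a single fit, for the 10908 genes that reached FPKM 1 in 3 or more libraries; differences on this scale understate the change of low genes. The script was tested on simulated data. With each group simulated at its own noise, the fit over all libraries made more false calls in AngII against blank than with a shared noise, and calls in that comparison are less certain for it.

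The 4 genes, the lists and the tests were chosen with earlier results of these data known. The rule for named genes covers the 4 genes, list genes with a symbol, and the 3 genes most alike to each. Alternatives were FPKM as deposited, median-ratio scaling, pseudocounts of 0.1 and 10, no filter, a mean relative level of at least 10, the replicate number as a block and leaving out each library. The relative level without ADORA1-2 in the sum, a fit with the compared groups only, and the relaxed CArG box were added after seeing the data. Promoters were matched by symbol, with 10 of 12 genes found; those of Myh11 and Actb are not used here.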

Additional observations from a re-analysis of the deposited data

How the results depend on the processing

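The direction of AngII against blank was kept for the 4 genes under every alternative run, whereas treated against blank changed sign with the scale for MYH11, ACTB and CCN2; the cause was not tested. In AngII against blank 698 genes were called. The count was 169 for FPKM as deposited, 1720 after median-ratio scaling, 154 with a pseudocount of 10, 1276 without ADORA1-2 in the sum, and 0 with the compared groups only (1435 at an unadjusted p below 0.05), a fit in which the quieter treated libraries do not enter the estimate of the spread. It ran from 67 without blank replicate 3 to 2040 without blank replicate 2, and was 347, 307 and 280 without treated replicates 1, 2 and 3. In treated against AngII 8401 genes were called, against 1191 after median-ratio scaling, 5056 with a pseudocount of 10, 3214 at a mean relative level of at least 10 (4727 genes tested) and 1412 without ADORA1-2. In treated against blank 8641 were called, against 3375, 5318, 3500 and 3851 under the same alternatives. Of the 8 SRF genes, 2 were called in treated against AngII after median-ratio scaling and 2 without ADORA1-2 in the sum, against 7, and leaving out a library gave 4 to 8. In treated against blank 8 were called for FPKM as deposited and 3 after median-ratio scaling, against 5, and leaving out a library gave 5 to 8. In AngII against blank leaving out a library gave 0 to 1.

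With the replicate block 440 genes were called in AngII against blank, and the calls among the 8 SRF genes were the same genes. The labels state no shared animal or day for a number, and the deviations of same-numbered libraries correlated at -0.0583 to 0.0920 over 9 pairs, none above 0.1, so the block is given here only. With 3 libraries a group and as few as 0 to 19 fragments behind ACTA2, MYH11 and CCN2 in AngII libraries, counting error limits what those libraries can show.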
